A study of Bos taurus with 9 samples.

Results

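The genes described here carry the symbols ZNF, ZFP or ZBTB followed by a number, the naming series for zinc finger proteins. Members were taken from these symbols alone, where a probe set of the array is annotated to that symbol and no other. Of 9155 genes with such a probe set, 108 matched, and 104 were bright enough to be tested. Each gene was read from its probe set with the highest mean over all 9 arrays, and genes whose mean lay below an intensity of 17.1 (set by the 25th percentile of all probe sets, on the log2 scale below) were left out. The 4 genes left out were ZBTB32, ZNF432, ZNF652 and ZBTB16, with means between 6.23 and 8.16. Just inside the limit lay ZNF814 at 17.5, ZNF821 at 18.6, ZNF555 at 18.6 and ZNF543 at 19.1. Of the 104, 85 are ZNF genes, 5 are ZFP genes and 14 are ZBTB genes.

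The cells were nucleus pulposus cells, from the gelatinous core of the intervertebral disc, taken from tail discs of young calves and cultured in DMEM with serum. Untreated cells were the control, and salt brought the medium of the treated cells to 500 mOsm/kg for 5 h or for 24 h. There were 3 one-colour bovine arrays per group, labelled as biological replicates 1 to 3. Whether these cultures came from different animals is not said, so the p-values here speak only of the spread among the cultures at hand, which may be technical. All groups share the serum, and no sample carries an altered gene. The labels give no time for the control, and the same control arrays serve both salt times, so salt and time in culture cannot be told apart.

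Most members encode proteins with C2H2 zinc fingers, small folds that hold a zinc ion and grip DNA bases, strung together so that each protein can read a longer stretch. Many of the ZNF genes belong to the KRAB class, whose KRAB domain recruits the corepressor TRIM28, which in turn brings the histone methyltransferase SETDB1 and HP1 proteins such as CBX3 to silence the bound DNA, often transposable elements. ZBTB proteins pair zinc fingers with a BTB domain that joins the protein to another copy of itself and recruits NCOR and HDAC corepressors. A few members share only the symbol. ZFP36, ZFP36L1 and ZFP36L2 carry CCCH fingers that bind AU-rich elements of mRNAs and hasten their decay, and ZBTB8OS is named for lying opposite ZBTB8 and has no zinc finger. The group is therefore called zinc finger genes below, as a name for the symbols.

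Values are the authors' PLIER intensities on a linear scale, and differences are of log2(intensity + 16), which understates changes of dim genes. Levels of different genes are not compared, because probe sets differ in brightness for the same amount of RNA. Array medians over all probe sets lay between 67.1 and 84.5. The 5 h arrays had a median of 71.2 ± 4.1 (SD, n = 3), against 76.5 ± 6.3 in control and 81.0 ± 5.4 at 24 h. No 2 arrays held identical values. Of the nucleus pulposus marker list, 14 of 22 genes had a probe set. ACAN, the cartilage proteoglycan aggrecan, read between 497 and 2139 in control and BASP1 between 5140 and 5751. COL2A1, also on the list, read 330, 177 and 40 in control. KRT8, KRT19, CA3, NCAM1 and SHH were below the limit on dim probe sets, and KRT18 read no higher than 31.8, so the keratin markers of this cell type were read near the floor of the array.

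Across the 9 arrays, the median intensity of the 104 zinc finger genes was 115, 124 and 123 in the control arrays. It was 96.1, 101 and 109 at 5 h, and 158, 148 and 142 at 24 h. The 3 groups did not overlap: each 5 h array was below every control array, and each 24 h array was above every control array. The array median of all probe sets moved the same way, with overlapping groups. Less the array's own median, the log2 member median was 0.44, 0.55 and 0.71 in control, 0.36, 0.36 and 0.59 at 5 h and 0.81, 0.70 and 0.80 at 24 h, so on that scale the groups overlapped. There control replicate 3 lay just above 24 h replicate 2, and 5 h replicate 3 lay above control replicates 1 and 2. Because these are bulk samples, less RNA per cell and fewer cells of a type cannot be told apart in this or any later result.

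**Figure D1:**
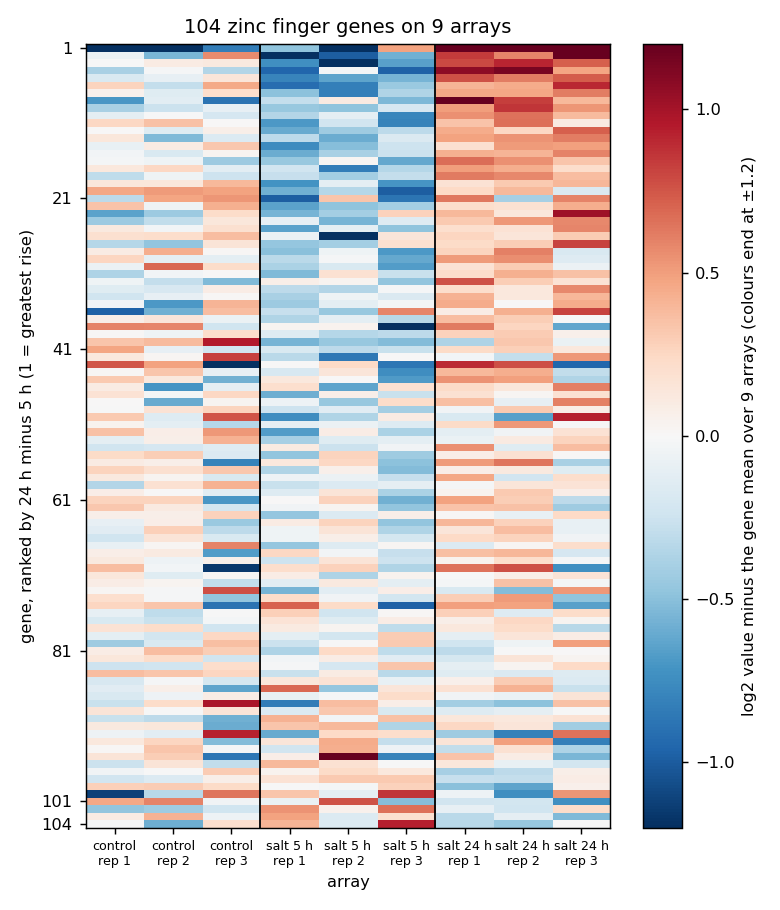
Each of the 104 tested zinc finger genes (rows) in each of the 9 arrays (columns), coloured by its log2(intensity + 16) minus that gene's mean over the 9 arrays. Rows are ordered by the 24 h minus 5 h difference, and 84 of the 104 genes lie above 0 in that difference.

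The first comparison asked which genes differed after 5 h in salt. At an adjusted p under 0.05 (limma, Benjamini-Hochberg over all 18012 tested probe sets), no zinc finger gene differed from control, 0 higher against 0.233% of all tested probe sets and 0 lower against 0.25%. Under median centring both counts were again 0, and the calls over all probe sets went from 42 higher and 45 lower to 34 and 23. The lowest adjusted p was 0.0878, for ZNF677. At an unadjusted p under 0.05 in the same limma fit, 2 were higher (2.71% of all probe sets) and 20 were lower (4.5%). The replicate numbers were taken to pair the cultures, as deviations from the group means were shared most by same-numbered arrays. The labels do not say what the number marks. With the replicate number as a block, 3 zinc finger genes were higher, against 2.45% of all probe sets, and 15 were lower, which is 14.4% of the 104 against 3.41% of all probe sets. All 15 were below control in all 3 same-numbered pairs. Without regard to any test, 25 genes had all 5 h arrays below all control arrays (24% of the members, 6.6% of all probe sets) and 3 had all of them above (4.04% of all probe sets).

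The median difference at 5 h over the zinc finger genes was -0.13 on the log2 scale, against -0.030 over all tested probe sets. The 3 same-numbered pairs gave -0.23, -0.085 and -0.18. With each array centred on its own median the member median was -0.049 and that of all probe sets 0.055, since centring moves both by the same amount. In all, 68 zinc finger genes lay below control and 36 above, against 56.1% and 43.9% of all probe sets. The same control arrays enter the 24 h comparison.

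Where a gene is called a KRAB gene below, this is background on its human counterpart, and members were not counted by that class. ZNF677, a KRAB gene, read 188, 195 and 192 in control and 83.5, 101 and 58.5 at 5 h. Every 5 h array lay well under every control array, and the control arrays were close to each other. The difference was -1.12 ± 0.22 (SE), with an adjusted p of 0.0878 in limma without the block and 0.00222 with it. At 24 h ZNF677 read 159, 178 and 115, between the other groups and again without overlap with control (-0.34 ± 0.22, adjusted p = 0.428).

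ZNF543, another KRAB gene, read 28.1, 29.5 and 51.8 in control, 7.8, 9.5 and 8.5 at 5 h, and 11.2, 27.8 and 17.2 at 24 h. Its 5 h arrays all lay below its control arrays, at 8.60 ± 0.85 (SD, n = 3), where the added 16 compresses differences. The 5 h difference was -1.06 ± 0.22 (adjusted p = 0.098; 0.00865 with the block). At 24 h its arrays still lay below all control arrays, at -0.59 ± 0.22 (adjusted p = 0.135; 0.0276 with the block). ZNF543 passed the limit of 17.1, with a mean of 19.1, only through its control arrays, which favours lower differences at both times.

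ZNF572 read 105, 71.1 and 173 in control and 35.1, 47.8 and 69.3 at 5 h. Replicate 3 was the highest in both groups, so the arrays scatter widely although the groups do not overlap. The difference was -0.95 ± 0.35 (adjusted p = 0.498), and with the block that takes out the replicate number the adjusted p was 0.00892. ZNF3, a KRAB gene, read 174, 189 and 191 in control and 98.5, 64.8 and 106 at 5 h. Here the control arrays were tight and the 5 h arrays were all far below them (-0.95 ± 0.19, adjusted p = 0.0938; 0.00842 with the block).

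ZNF181 (KRAB) read 61.3, 36.8 and 72.3 in control and 18.1, 20.4 and 31.4 at 5 h, a difference of -0.87 ± 0.24 (adjusted p = 0.252; 0.00805 with the block). ZNF35 read 282, 304 and 236 in control and 140, 198 and 128 at 5 h, a difference of -0.78 ± 0.22 (adjusted p = 0.258; 0.00443 with the block). In both genes every 5 h array was below every control array. The other genes lower only with the block were ZNF317 (-0.75), ZBTB24 (-0.74), ZBTB1 (-0.72), ZNF79 (-0.71), ZNF341 (-0.69), ZNF613 and ZNF200 (each -0.62), ZNF583 and ZNF197 (each -0.60). ZBTB24 is the gene mutated in a form of the immunodeficiency, centromere instability and facial anomalies syndrome, and ZBTB1 is required for lymphocyte development. Of these, ZNF79 alone had 5 h arrays inside the control range, and its replicate 3 was the lowest array of each group.

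The 3 genes higher at 5 h with the block were ZNF143, ZNF592 and ZFP36L1. ZNF143, an activator at the promoters of small nuclear RNA and many protein-coding genes, read 154, 159 and 184 in control and 326, 228 and 356 at 5 h. All 5 h arrays were above all control arrays, by 0.80 ± 0.21 (adjusted p = 0.223; 0.00693 with the block). At 24 h it read 204, 184 and 258, just above the highest control array, at 0.34 ± 0.21 (adjusted p = 0.395; 0.064 with the block). ZNF592 read 121, 117 and 94.7 in control, 205, 146 and 195 at 5 h and 165, 164 and 171 at 24 h. Its arrays at both salt times lay above all control arrays, by 0.63 ± 0.18 at 5 h (adjusted p = 0.266; 0.0331 with the block) and by 0.53 ± 0.18 at 24 h (adjusted p = 0.109; 0.0172 with the block). ZFP36L1, the mRNA decay factor, read 2150, 1439 and 2506 in control and 2898, 1950 and 4172 at 5 h. The groups overlap, yet each 5 h array was above its own same-numbered control (0.53 ± 0.29, adjusted p = 0.88; 0.0297 with the block).

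The second comparison asked what differed after 24 h in salt. Here 7 zinc finger genes rose, 6.73% of the 104 against 4.28% of all tested probe sets, and 0 fell, against 4.32% of all probe sets. At an unadjusted p under 0.05 in limma, 20 were higher and 3 lower, against 11.8% and 11.7% of all probe sets. With the replicate block 29 were higher (27.9%, against 18.3% of all probe sets) and 4 were lower (3.85%, against 17.5%). All 24 h arrays were above all control arrays in 24 genes (13.9% of all probe sets) and below them in 8 (13.5% of all probe sets). All 3 same-numbered pairs were higher in 53 genes (33.3% of all probe sets) and lower in 17 (29.5% of all probe sets). Over all probe sets 771 were called higher and 779 lower. Under median centring these were 503 and 827, and 5 zinc finger genes were higher and 0 lower.

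The median difference at 24 h was 0.17 on the log2 scale for the zinc finger genes and 0.023 for all tested probe sets. The same-numbered pairs gave 0.20, 0.20 and 0.16. After centring each array on its median these values were 0.096 and -0.046. In sign, 73 members lay above control and 31 below, against 52.8% and 47.2% of all probe sets.

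The greatest rise was in ZNF385B, one of a small family with matrin-type zinc fingers, which bind RNA as well as DNA. It read 11.7, 10.9 and 21.1 in control, at the dim end of the array. At 5 h it read 31.1, 10.2 and 76.2, and at 24 h 161, 136 and 265. The 24 h arrays were all far above the others, while at 5 h replicates 1 and 3 were above every control array and replicate 2 was below them. ZNF385B rose by 2.70 ± 0.43 at 24 h (adjusted p = 0.0108), and the 5 h difference was 0.68 ± 0.43 (adjusted p = 0.968; 0.104 with the block). A second probe set for this gene was too dim to be tested, with a mean of 2.2.

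ZNF385A, the relative that binds p53 and shifts its choice of target genes, read 25, 44.8 and 20 in control, 38.3, 55.6 and 29.7 at 5 h and 136, 102 and 70.9 at 24 h. Each 24 h array was above every other array. It rose by 1.37 ± 0.28 at 24 h (adjusted p = 0.023) and differed by 0.33 ± 0.28 at 5 h (adjusted p = 1; 0.337 with the block). These were the only members of this family with a tested probe set.

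ZNF692, a repressor known from the promoter of a glucose-producing enzyme, read 88.3, 119 and 91.1 in control, 54.5, 118 and 53.8 at 5 h and 272, 285 and 174 at 24 h. The 24 h arrays stood above all others, and at 5 h replicate 2 alone stayed at the control level. ZNF692 rose by 1.15 ± 0.30 (adjusted p = 0.0491), close to the threshold. A second probe set rose by 1.25 ± 0.27 (adjusted p = 0.0278), and a dim one read 0.27 ± 0.24 higher (adjusted p = 0.597).

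The remaining 4 genes that rose at 24 h were ZNF184, ZNF34, ZNF613 and ZNF3, all KRAB genes in human. ZNF184 read 110, 122 and 138 in control, 105, 102 and 127 at 5 h and 217, 282 and 222 at 24 h. Control and 5 h overlapped, and the 24 h arrays were all higher, by 0.88 ± 0.18 (adjusted p = 0.0221). ZNF34 gave the same picture, with 180, 218 and 188 in control, 184, 167 and 183 at 5 h and 358, 347 and 298 at 24 h. It rose by 0.73 ± 0.15 (adjusted p = 0.025).

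ZNF613 read 118, 126 and 152 in control, 71.4, 82.1 and 87.1 at 5 h and 242, 217 and 236 at 24 h. Its 3 groups did not overlap, with 5 h lowest and 24 h highest, and so it was for ZNF3, which read 316, 344 and 298 at 24 h (its other arrays are given above). ZNF613 rose by 0.75 ± 0.16 (adjusted p = 0.0276) and ZNF3 by 0.74 ± 0.19 (adjusted p = 0.0479). Under median centring both lost their call, with adjusted p of 0.0704 and 0.0981, and the other 5 genes kept theirs.

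**Figure D2:**
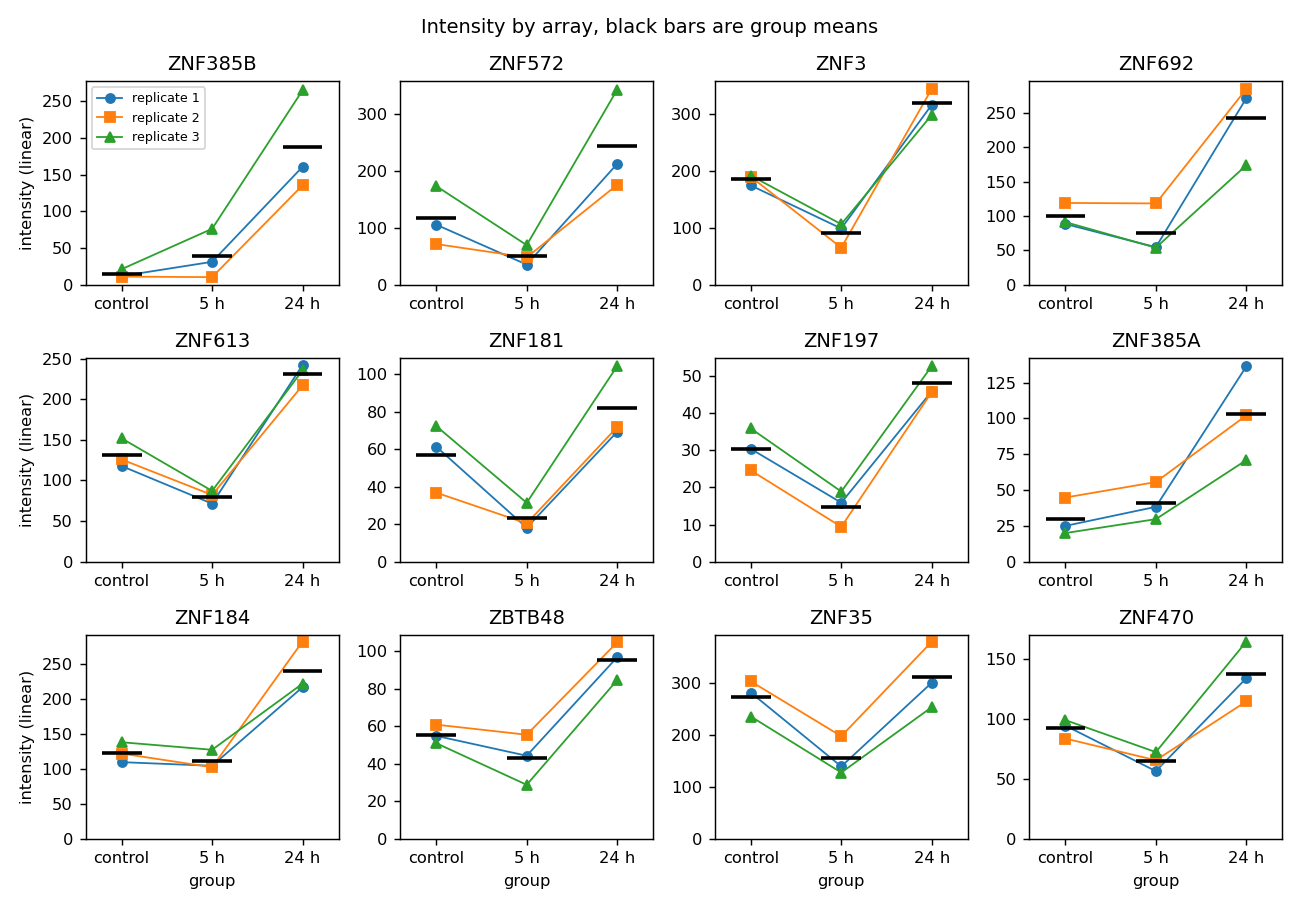
Intensity (linear axis from 0) in control, 5 h and 24 h arrays of the 12 zinc finger genes with the greatest rise between 5 h and 24 h. Each marker is 1 array, lines join arrays of the same replicate number and black bars are group means; in ZNF613 and ZNF3 the 3 groups do not overlap, and in ZNF385B the 24 h arrays reach 265.

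With the replicate block, further genes were higher at 24 h. The 6 with the smallest blocked adjusted p were ZNF768 (0.80, 0.00123), ZNF572 (0.99, 0.0014), ZNF354A (0.66, 0.00177), ZNF524 (0.70, 0.00198), ZNF326 (0.84, 0.00243) and ZNF513 (0.73, 0.00416), where the first value is the log2 difference and the second the adjusted p. Without the block their adjusted p lay between 0.064 and 0.238. ZNF326, a subunit of the DBIRD complex that couples transcript elongation to splicing, read 329, 435 and 855 in control and 704, 890 and 1165 at 24 h, so that replicate 3 was high in both groups. ZBTB4, which binds methylated DNA, read 468, 302 and 478 in control and 603, 436 and 717 at 24 h (0.48 ± 0.26, adjusted p = 0.336; 0.00522 with the block). In each of these genes the 24 h array exceeded its same-numbered control.

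The 4 genes lower at 24 h with the block were ZNF593, ZNF814, ZNF543 and ZNF75D. Of these, ZNF814 and ZNF543 passed the limit on dim probe sets only through arrays where they read higher, which favours a lower call. ZNF593, related to a yeast factor for export of the large ribosomal subunit, read 242, 267 and 166 in control, 161, 301 and 115 at 5 h and 144, 145 and 96.4 at 24 h. Its 24 h arrays lay below all control arrays, at -0.73 ± 0.33 (adjusted p = 0.229; 0.00773 with the block). ZNF75D read 327, 318 and 303 in control, 206, 269 and 197 at 5 h and 225, 221 and 224 at 24 h. It was below control at both times, at -0.48 ± 0.16 at 5 h (adjusted p = 0.401; 0.0526 with the block) and -0.47 ± 0.16 at 24 h (adjusted p = 0.108; 0.0144 with the block). ZNF814 lay at the limit of detection, at 24.8, 25.3 and 23.3 in control and 7.6, 5.6 and 19.0 at 24 h (-0.63 ± 0.19, adjusted p = 0.076; 0.00945 with the block).

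The count of 7 changed with the arrays left out. It was 1 without control replicate 2, without control replicate 3, without 24 h replicate 1 or without 24 h replicate 2, 2 without control replicate 1, 3 without 5 h replicate 1, and 9 without all 3 arrays numbered 3. None of the 7 kept its call in all 9 refits that left out 1 array, and ZNF385B kept it in 8. The shares of all probe sets called in these refits are not given here. Whether the changes are particular to these genes therefore cannot be read from the counts.

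The third comparison set 24 h against 5 h, both in salt, and it does not use the control arrays as a reference. It held most of the zinc finger calls: 23 genes were higher at 24 h, 22.1% of the 104 against 8.01% of all tested probe sets, and 0 were lower, against 6.15% of all probe sets. At an unadjusted p under 0.05 in limma, 35 were higher and 2 lower, against 16.2% and 12.8% of all probe sets. With the replicate block the counts were 43 higher (41.3%, against 24.2% of all probe sets) and 4 lower (3.85%, against 19.6%). All 24 h arrays were above all 5 h arrays in 38 genes (18.1% of all probe sets), and below them in 1 (14.3% of all probe sets), which was ZNF131.

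The median of this difference was 0.32 for the zinc finger genes and 0.057 for all tested probe sets, and the same-numbered pairs gave 0.41, 0.29 and 0.38. In sign, 84 members lay above 0 and 20 below, against 55.7% and 44.3% of all probe sets. The size of the shift depends on the scaling: after centring, the member median was 0.17 and that of all probe sets was -0.096. The count of higher genes was then 15, against 4.47% of all probe sets, and 0 were lower, against 8.93%. The 8 genes that lost their call were ZNF688, ZNF513, ZNF200, ZNF677, ZBTB24, ZNF317, ZNF398 and ZNF331, with adjusted p from 0.0551 to 0.165. Over all probe sets the same centring turned the split of calls from 1443 higher and 1108 lower to 806 higher and 1608 lower.

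**Figure D3:**
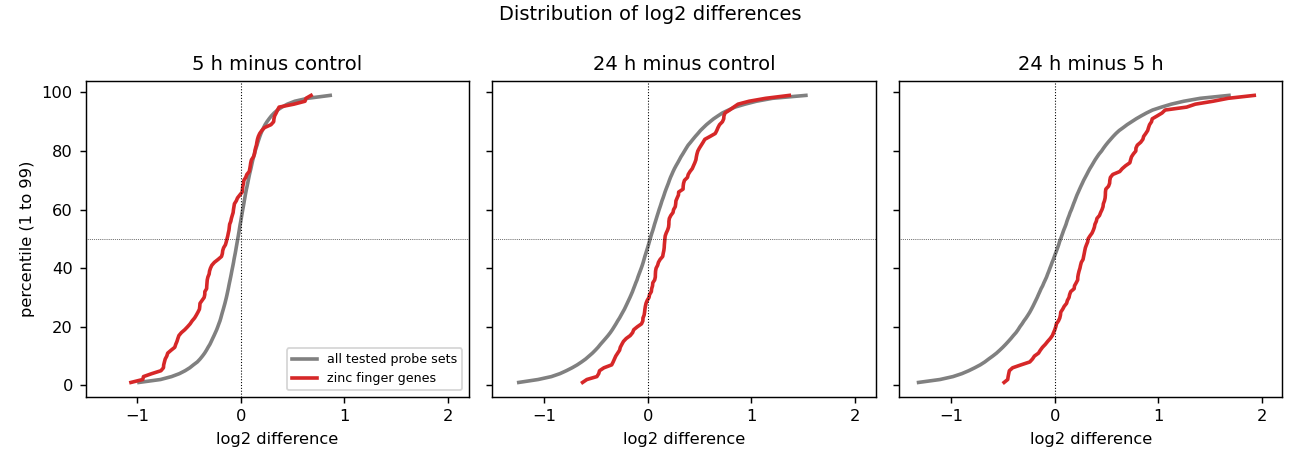
Percentiles 1 to 99 of the log2 difference in each of the 3 comparisons, for the 104 zinc finger genes and for all 18012 tested probe sets. The member curve is left of the other over most of its range at 5 h (medians -0.13 and -0.030) and right of it at 24 h minus 5 h (medians 0.32 and 0.057).

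All 23 genes had every 24 h array above every 5 h array. They include each of the 7 genes that rose at 24 h against control. Compared with control, 21 of the 23 lay below it at 5 h and 22 above it at 24 h. In 14 every 5 h array was below every control array, and in 15 every 24 h array was above every control array. The 23 genes were chosen by their 24 h minus 5 h difference on these same arrays, which favours all of these counts. They are therefore not separate evidence, and the same counts over all probe sets called higher are not given here.

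ZNF3 rose by 1.68 ± 0.19 (adjusted p = 0.00278) and ZNF613 by 1.37 ± 0.16 (adjusted p = 0.00313), from the arrays given above. ZNF181 went from 18.1, 20.4 and 31.4 at 5 h to 69.2, 71.7 and 104 at 24 h and rose by 1.31 ± 0.24 (adjusted p = 0.0116). Its 24 h arrays overlapped control, so its low point was at 5 h. ZNF197, which carries a SCAN domain beside its KRAB domain, read 30.4, 24.6 and 35.9 in control, 15.9, 9.4 and 18.9 at 5 h and 45.9, 45.7 and 52.7 at 24 h. The 3 groups did not overlap, and it rose by 1.07 ± 0.16 (adjusted p = 0.00612).

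ZNF184 rose by 1.01 ± 0.18 (adjusted p = 0.01) and ZNF34 by 0.85 ± 0.15 (adjusted p = 0.0111), both from a 5 h level that overlapped control. ZNF470 read 94.5, 83.7 and 99.1 in control, 56.5, 65.6 and 72.4 at 5 h and 134, 115 and 165 at 24 h. Its groups were again fully apart, and it rose by 0.92 ± 0.18 (adjusted p = 0.0133), with a second probe set at 0.74 ± 0.18 (adjusted p = 0.0274). ZNF688 rose by 0.85 (adjusted p = 0.0263), and its second probe set rose by 1.07 ± 0.24 (adjusted p = 0.021). ZNF677 (0.79), ZNF317 (0.78), ZNF331 (0.74) and ZNF398 (0.73), also KRAB genes, rose with adjusted p from 0.0247 to 0.0472.

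Not every probe set of these genes moved. A second probe set of ZNF317 read 0.15 ± 0.34 higher (adjusted p = 0.848), and those of ZNF398 differed by 0.29 ± 0.22 and -0.11 ± 0.17 (adjusted p = 0.44 and 0.743), all of them dimmer than the ones used. ZNF331, which is imprinted in several mammals, differed from ZNF317 in its course: it read 52.8, 59.8 and 85.9 in control, 70.6, 47.3 and 67.7 at 5 h and 99.3, 117 and 123 at 24 h. Only its 24 h arrays stood apart.

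The matrin-type gene ZNF385B rose by 2.02 ± 0.43 (adjusted p = 0.0177), ZNF692 by 1.55 ± 0.30 (adjusted p = 0.0133) and ZNF385A by 1.05 ± 0.28 (adjusted p = 0.0412). A second probe set of ZNF692 rose by 1.60 ± 0.27 (adjusted p = 0.00855), and a dim one read 0.51 ± 0.24 higher (adjusted p = 0.201). ZNF572 went from 35.1, 47.8 and 69.3 at 5 h to 212, 175 and 342 at 24 h, a rise of 1.94 ± 0.35 (adjusted p = 0.0105). Its 3 groups did not overlap, with control between them.

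ZBTB48, a protein that binds telomere repeats and limits telomere length, read 54.9, 60.9 and 51.0 in control, 44.3, 55.5 and 28.8 at 5 h and 96.8, 105 and 84.6 at 24 h. It rose by 0.94 ± 0.20 (adjusted p = 0.017), with control and 5 h overlapping. ZBTB24 read 70.0, 69.6 and 86.2 in control, 31.5, 55.8 and 31.8 at 5 h and 72.1, 81.3 and 87.1 at 24 h. It rose by 0.81 ± 0.20 (adjusted p = 0.0291) and at 24 h overlapped control, so the 5 h arrays were the ones apart. These were the only 2 of the 14 ZBTB genes called. The remaining called genes were ZNF35 (0.94), ZNF513 (0.91), ZNF200 (0.90), ZNF576 (0.89) and ZNF174 (0.86), the last a SCAN-domain repressor.

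**Figure D4:**
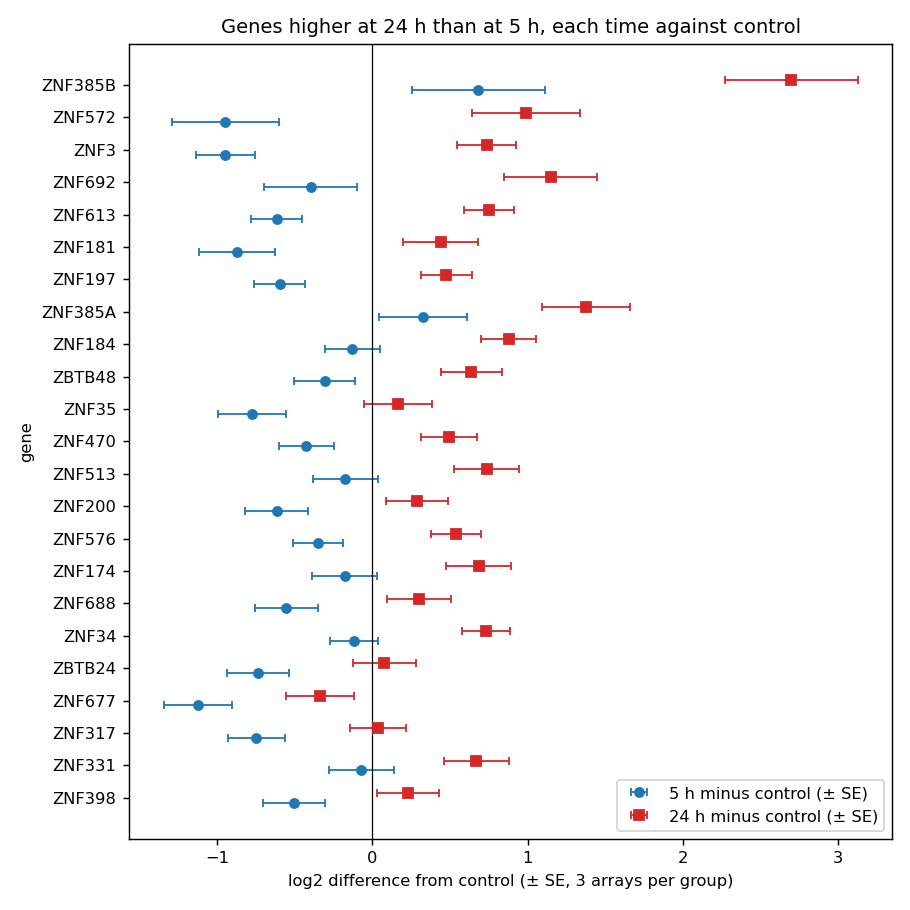
Log2 difference from control (x axis, with SE bars, 3 arrays per group) at 5 h (circles) and at 24 h (squares) for each of the 23 genes higher at 24 h than at 5 h, 1 row per gene. Both times use the same control arrays, and 21 of the circles lie below 0 and 22 of the squares above it. The choice of genes by 24 h minus 5 h favours these counts.

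The 4 genes lower at 24 h than at 5 h with the block were ZFP36L1, ZNF131, ZNF143 and ZNF814. The last passed the limit on dim probe sets only through its control and 5 h arrays, which favours a lower call. ZFP36L1 went from 2898, 1950 and 4172 at 5 h to 1726, 1583 and 2166 at 24 h, overlapping, at -0.66 ± 0.29 (adjusted p = 0.174; 0.00174 with the block), and its second probe set fell by 0.88 on the log2 scale (adjusted p = 0.0207). ZNF131, a BTB zinc finger gene, read 337, 355 and 421 in control, 451, 499 and 499 at 5 h and 327, 324 and 427 at 24 h. Its 5 h arrays were above all others (24 h minus 5 h -0.42 ± 0.16, adjusted p = 0.127; 0.011 with the block).

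Of the 23 calls, 5 were kept in all 9 refits without 1 array: ZNF3, ZNF613, ZNF197, ZNF572 and ZNF184. The count was 6 without 5 h replicate 1, 8 without 24 h replicate 1 and 11 without 24 h replicate 2, and 25 without the arrays numbered 3. As before, these counts are not set against all probe sets.

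By group means, 62 of the 104 genes were lowest at 5 h, 59.6% against 39.6% of all tested probe sets. The 24 h group was highest for 64 genes, 61.5% against 45.2%. Both held in 42 genes, 40.4% against 29% of all probe sets. The 5 h and 24 h groups each enter more than 1 of these counts, so they are not separate pieces of evidence.

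Members best known for roles other than DNA binding were counted apart. The 10 of them that were tested had medians of 0.12 at 5 h, 0.015 at 24 h and -0.054 at 24 h minus 5 h, with 0 called in each comparison by limma, and 0 at an unadjusted p under 0.05. With the block, 1 was higher and 0 lower at 5 h, and 1 was higher and 1 lower in each of the other comparisons. Of all probe sets, the block called 2.45% higher and 3.41% lower at 5 h. It called 18.3% and 17.5% at 24 h, and 24.2% and 19.6% at 24 h minus 5 h. Without the block these shares were 0.233% and 0.25%, 4.28% and 4.32%, and 8.01% and 6.15%. At an unadjusted p under 0.05 in limma they lay between 2.71% and 16.2%. ZFP36 read 214, 237 and 97.6 in control and 202, 479 and 102 at 5 h, where 1 array alone was high (0.32 ± 0.52, adjusted p = 1). ZFP36L2 read 916, 1592 and 1657 in control, 569, 1447 and 616 at 5 h and 1785, 864 and 1729 at 24 h, with overlap throughout. ZNF622, a factor in maturation of the large ribosomal subunit, differed by -0.11 ± 0.17 at 5 h and -0.19 ± 0.17 at 24 h. ZNF207, a mitotic spindle protein, differed by 0.15 ± 0.36 and -0.02 ± 0.36, and ZNF451, a SUMO ligase, by 0.10 ± 0.17 and 0.07 ± 0.17.

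A further 5 members ZNF148, ZNF24, ZNF335, ZBTB43 and ZNF521, were not called in any comparison. The differences were -0.46 ± 0.33 at 5 h for ZNF148, which binds GC-rich promoters, -0.23 ± 0.26 for ZNF24 and 0.32 ± 0.20 for ZNF335, a part of a histone methyltransferase complex. At 24 h they were -0.32, 0.02 and 0.07, each with overlapping arrays. ZBTB43 differed by 0.36 ± 0.33 at 5 h and 0.34 ± 0.33 at 24 h, and ZNF521, a regulator of mesenchymal and blood progenitors, by 0.63 ± 0.48 and 0.18 ± 0.48. With the block none of these 5 was called either.

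Zinc finger genes often lie in clusters that grew by duplication, so position in the gene table was set beside the values. In the current bovine gene table, used only for the order of genes, 44 members lie next to a gene with a zinc finger symbol and 60 do not. At 24 h minus 5 h, 13 of the 44 were called higher with a median of 0.42, and 10 of the 60 with a median of 0.27, while 8.01% of all tested probe sets were called higher and their median was 0.057. The difference between the 44 and the 60 was not tested. At 5 h the medians were -0.22 and -0.091. Among 19 members that are next to another member, 19 lay above 0 at 24 h minus 5 h and 3 were called, where 55.7% of all probe sets lay above 0 and 8.01% were called higher. Over all 104 members, 80.8% lay above 0 and 22.1% were called higher. ZNF197 and its neighbour ZNF35 had differences of -0.60 and -0.78 at 5 h and of 1.07 and 0.94 at 24 h minus 5 h. The neighbours ZNF543 and ZNF304 differed at 5 h by -1.06 and -0.35, and ZNF48 and ZNF771 by 0.14 and 0.17. In other pairs the neighbours went opposite ways at 5 h, with 0.16 and -0.60 for ZNF667 and ZNF583 and -0.080 and 0.096 for ZNF565 and ZNF567. Neighbours may share sequence, and whether their probes cross-react was not tested.

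The partners through which KRAB proteins silence DNA were on a list of 20 genes, of which 9 were tested. At 5 h limma called 0 (1 higher and 0 lower at an unadjusted p under 0.05). At 24 h 3 fell and 0 rose (3 and 1 at an unadjusted p under 0.05), where 4.32% of all probe sets fell and 4.28% rose. With the block 3 were lower and 2 higher, against 17.5% and 18.3% of all probe sets. The list's median was 0.15, against 0.023 over all tested probe sets. UHRF1 and DNMT1, which copy DNA methylation at replication, fell by 2.17 and 0.86 on the log2 scale (adjusted p = 0.014 and 0.0319), and CBX3, the HP1 gamma protein, fell by 0.51 (adjusted p = 0.0196). SETDB1, the histone methyltransferase of the complex, read 108 ± 15 in control, 88.7 ± 15.3 at 5 h and 171 ± 27 at 24 h (SD, n = 3). It rose between 5 h and 24 h by 0.84 ± 0.19 (adjusted p = 0.0242), while UHRF1, CBX3 and DNMT1 fell by 2.29, 0.64 and 0.82 on the log2 scale (adjusted p = 0.00768, 0.0065 and 0.0271). In this comparison 1 of the 9 rose and 3 fell, against 8.01% and 6.15% of all probe sets. The list's median was -0.34, against 0.057 over all tested probe sets. With the block 2 were higher and 4 lower, against 24.2% and 19.6% of all probe sets. No other listed gene rose in this comparison without the block, and with it SMARCAD1 was higher too (0.44 ± 0.34, adjusted p = 0.452; 0.0212 with the block). It stood 0.60 ± 0.19 above control at 24 h (adjusted p = 0.0981; 0.00325 with the block). TRIM28 varied from array to array, at 1751 ± 1110 in control, 2068 ± 1204 at 5 h and 1619 ± 882 at 24 h, too widely for a difference to be seen.

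Of the 28 listed partners and corepressors of BTB proteins, 16 were tested, and 1 rose and 1 fell at 24 h, against 4.28% and 4.32% of all probe sets. TBL1X, a subunit of the NCOR complex, rose by 0.91 ± 0.16 (adjusted p = 0.0145), and the deacetylase HDAC1 fell by 0.48 on the log2 scale (adjusted p = 0.023). At 5 h limma called 0, with or without the block (0 higher and 1 lower at an unadjusted p under 0.05), and the medians were 0.15 at 5 h and -0.11 at 24 h.

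Zinc finger transcription factors with other kinds of symbol formed a list of 115, of which 31 were tested. At 5 h 1 rose and 0 fell, and at 24 h 4 rose and 0 fell (at an unadjusted p under 0.05 in limma, 3 and 3, then 6 and 1). Of all probe sets, 0.233% rose at 5 h and 4.28% at 24 h. At 24 h minus 5 h 7 rose and 3 fell, against 8.01% and 6.15% of all probe sets, with a median of 0.16 against 0.057 over all tested probe sets. OSR2, a regulator of limb and joint development, read 48.6 ± 6.8 in control, 227 ± 26 at 5 h and 88.2 ± 12.7 at 24 h and was highest at 5 h, above control by 1.91 ± 0.18 (adjusted p = 0.00438). At 24 h ZKSCAN5, a KRAB and SCAN gene, rose by 1.65 ± 0.19 (adjusted p = 0.00388), VEZF1 by 1.09 ± 0.18 (adjusted p = 0.0118), ZSCAN21 by 0.69 ± 0.15 (adjusted p = 0.025) and OSR2 by 0.69 ± 0.18 (adjusted p = 0.0475). Between 5 h and 24 h, ZKSCAN5, VEZF1 and ZSCAN21 rose again by 1.69, 0.70 and 1.01, together with ZSCAN16 (1.03), ZSCAN26 (0.95), GLIS2 (0.46) and the immediate-early gene EGR1 (2.18). KLF5, OSR2 and SP2 fell by 1.78, 1.22 and 0.70 on the log2 scale. The genes named for this last comparison were chosen after their values were seen.

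The replicate number was a large source of variance. For the median zinc finger gene the group held 44.4% of the variance over the 9 arrays and the replicate number 33.5%, where all tested probe sets gave 34.7% and 41.8%. The group share was the larger in 57 of the 104 genes, 54.8% against 46.6% of all probe sets. Replicate 3 was lower than the mean of replicates 1 and 2 by over 0.5 on the log2 scale in all 3 groups in 11 genes, and higher in 7. ZBTB33, or Kaiso, which binds methylated DNA, read 101, 81.4 and 11.7 in control, 53.7, 66.2 and 22.2 at 5 h and 114, 102.5 and 19.9 at 24 h. Its replicate 3 was by far the lowest array of each group, at -1.57 relative to the others on the log2 scale, and no group difference could be seen through this spread (24 h 0.27 ± 0.65, adjusted p = 0.89). ZNF521 read 177, 315 and 636 in control, 510, 369 and 743 at 5 h and 386, 236 and 588 at 24 h, where replicate 3 was the highest in each group. These 2 genes were picked after their values were seen. What sets the cultures numbered 3 apart is not given in the sources used here.

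**Figure D5:**
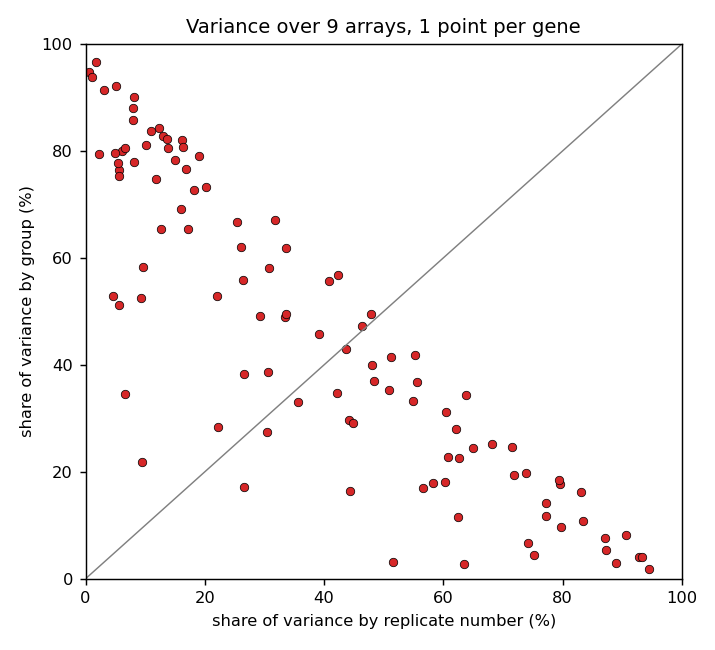
Share of each zinc finger gene's variance over the 9 arrays held by the replicate number (x axis) and by the group (y axis), both in percent, 1 point per gene, with the line of equal shares. The points above the line are the 57 genes whose group share is the larger.

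Markers of the labelled cell type and of some other cell types moved with the 24 h group. Of 9 tested nucleus pulposus markers, limma called 2 lower and 0 higher at 24 h, against 4.32% and 4.28% of all probe sets. With the block 2 were lower and 2 higher. BNIP3 read 1941, 3456 and 3101 in control and 864, 932 and 820 at 24 h. CXCL12 went from 3754, 4429 and 3895 to 2232, 3032 and 2036. ACAN read 2139, 1146 and 497 in control and 4026, 3453 and 1506 at 24 h. The summed level of 10 leukocyte markers was 249 to 277 in control, 270 to 277 at 5 h and 466 to 501 at 24 h, with CD14 holding most of the difference; ITGAM, TYROBP, FCER1G and CD79A were below the limit on dim probe sets. The sum of 6 fibroblast markers was 4002 to 5387 in control, 4112 to 5502 at 5 h and 6519 to 9894 at 24 h, with TNMD below the limit. COL12A1 held most of the difference, at 1383, 852 and 1055 in control and 3501, 3360 and 3949 at 24 h. THY1 was also higher in every 24 h array than in control. PDGFRA overlapped, at 3618, 2802 and 4074 in control and 4570, 2613 and 5383 at 24 h, as did THBS4 and FBLN1. The sum of 6 skeletal muscle markers was 959 to 1127, 1202 to 3470 and 2193 to 3534, with CKM the largest part and MYH1 below the limit. ACTA1, on the same list, went the other way, from 267, 287 and 366 in control to 176, 161 and 258 at 24 h (-0.60 ± 0.24, adjusted p = 0.157; 0.00234 with the block). That of 3 adipocyte markers was 881 to 1228, 776 to 1227 and 561 to 709, with ADIPOQ and LEP below the limit. Endothelial and erythroid sums overlapped between all groups. The log2 ratio of the actin 3' and 5' control probe sets was 2.69 ± 0.18 in control, 2.68 ± 0.28 at 5 h and 2.99 ± 0.28 at 24 h. That of GAPDH was -0.084 ± 0.092, 0.0063 ± 0.045 and 0.025 ± 0.016, with all 24 h arrays above all control arrays. The part of these markers and of RNA quality in the zinc finger differences was not tested.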

How the data were processed

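Total RNA of 9 cultures was primed from the poly(A) tail and hybridised to 1 array each, per the labels' protocols. The authors deposited a linear intensity for each probe set, computed by PLIER within Affymetrix Expression Console according to the submitters' processing notes. The sources used here name neither settings nor a normalization of the arrays to each other. Normalization was not added, so array medians move with the group. Gene symbols come from the platform annotation: of the probe sets outside 112 manufacturer controls, 13292 carry 1 symbol, 86 several and 10638 none, and all 104 members matched the current bovine gene table (ARS-UCD2.0, for names and gene order only) with 0 symbols changed. Of the members, 25 have more than 1 probe set, and 5 are read from one whose identifier ends in _a_at.

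Intensities were taken as log2(value + 16), probe sets with means under the 25th percentile were left out, and limma 3.58.1 (R 4.3.3; lmFit, then eBayes with trend) estimated the 3 group means from the 9 arrays in 1 fit. Every adjusted p is limma's with Benjamini-Hochberg over all tested probe sets, two-sided, called under 0.05. The fit was run on simulated data with large planted differences and no effect of the replicate number. That run therefore does not speak to smaller differences or to the replicate number. The number of arrays limits the precision. Deviations from the group means correlated between same-numbered arrays at 0.564 to 0.896 over the 3 comparisons, above those with any other number. The replicate number was therefore taken as pairing the arrays and used as a block in a further fit. The margin was wide for replicate 3, at 0.880 to 0.896 with negative values for other numbers. For replicate 1 it was narrow, at 0.564, 0.609 and 0.712 against at most 0.476, 0.527 and 0.545 with another number. Named genes were up to 12 called members per direction with the greatest change in each comparison, up to 6 called only with the block, 29 fixed names of which 16 were measured, and up to 4 called genes of each list. The members, gene lists and rules were chosen with earlier results of these data known. Alternatives were the pseudocount, filter, scaling, block, probe-set rule, eBayes trend and arrays left out. Sorting members by protein domain and printing of sequences were not done here.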

Additional observations from a re-analysis of the deposited data

Results flagged for a closer look

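The difference from control was not the same at 5 h and at 24 h in salt for 23 zinc finger genes, by the test of 24 h minus 5 h itself (limma, adjusted p under 0.05), and all were higher at 24 h. Time in salt and time in culture cannot be told apart here. The log2 differences were 2.02 for ZNF385B, 1.94 for ZNF572, 1.68 for ZNF3, 1.55 for ZNF692, 1.37 for ZNF613, 1.31 for ZNF181, 1.07 for ZNF197, 1.05 for ZNF385A and 1.01 for ZNF184. They were 0.94 for ZBTB48 and for ZNF35, 0.92 for ZNF470, 0.91 for ZNF513, 0.90 for ZNF200, 0.89 for ZNF576, 0.86 for ZNF174 and 0.85 for ZNF688 and ZNF34. The smallest were 0.81 for ZBTB24, 0.79 for ZNF677, 0.78 for ZNF317, 0.74 for ZNF331 and 0.73 for ZNF398.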

How the results depend on the processing

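None of the zinc finger counts or medians changed direction under the alternatives run, although centring turned the sign of the median over all probe sets in each comparison. No named gene changed direction where it was called in the main fit or in the alternative. Sign changes of named genes called in neither fit were not counted, and small differences can change sign under centring. Over the combinations of named gene, comparison and setting, 2551 kept the call or its absence, 141 gained a call and 95 lost one. Most combinations had no call in the main fit, so the first count mainly holds calls that stayed absent. Of the called genes, 0 of 7 at 24 h and 5 of 23 at 24 h minus 5 h kept their call in all 9 refits without 1 array. With the replicate block, the counts of higher and lower genes were 3 and 15 at 5 h, 29 and 4 at 24 h, and 43 and 4 at 24 h minus 5 h. With the block and median centring, chosen after seeing the data, they were 4 and 14, 25 and 6, and 31 and 8. With the block and quantile normalization, likewise chosen later, they were 3 and 13, 27 and 5, and 36 and 7. Without the block, the higher genes at 24 h minus 5 h were 15 under centring, 14 under quantile normalization, 15 with a filter at the 50th percentile (68 members tested) and 15 with the 6 arrays compared alone, which gave 2 at 24 h. Averaging a gene's probe sets gave 1 lower gene at 24 h minus 5 h, ZFP36L1. The medians were 0.20 and 0.39 at 24 h and at 24 h minus 5 h with a pseudocount of 1, 0.11 and 0.22 with 64, and 0.12 and 0.22 under quantile normalization. Under centring they were -0.049 at 5 h, 0.096 and 0.17. Leaving out 1 array at a time, the counts at 5 h stayed 0, with 0.233% and 0.25% of all probe sets called in the full fit, and the median ran from -0.23 to -0.11. At 24 h the higher genes ran from 1 to 7, the lower from 0 to 1 and the median from 0.11 to 0.25. At 24 h minus 5 h the higher ran from 6 to 21, the lower from 0 to 1 and the median from 0.30 to 0.39, and the lower gene was ZNF814, without 24 h replicate 3, in both. Without all arrays numbered 3, chosen after seeing the data, 9 and 25 genes were higher. The cause of these changes was not tested, other than fewer arrays or probe sets where those were left out. Dim genes such as ZNF543 and ZNF814 lie near the background, where log2 differences are compressed. Both passed the limit on dim probe sets only through arrays where they read higher, which favours lower calls. Over all probe sets, the block alone called 2.45% higher and 3.41% lower at 5 h. It called 18.3% and 17.5% at 24 h, and 24.2% and 19.6% at 24 h minus 5 h. Centring alone called 4.47% higher at 24 h minus 5 h. For the other alternatives these shares are not given here, so their counts are not set against all probe sets.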
